A study of Mus musculus with 24 samples.

Results

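The comparison described here is the difference between 2 fat depots in how gene expression differed with deletion of FoxO1 from adipose tissue of mice. It used all 24 of the 24 RNA-seq libraries of the series: 12 fat pads, each sequenced as 2 libraries, from 6 animals that each gave a gonadal and an inguinal pad. The 4 groups of 6 libraries (3 pads) were gonadal and inguinal white fat of conditional adipose FoxO1 knockout mice and gonadal and inguinal white fat of floxed FoxO1 controls. The controls carry the floxed gene as well. The sources used here give neither the promoter that drives the recombinase nor the sex, age, strain or diet of the animals. Library names hold a genotype letter, an animal number and a depot letter, and these names gave the knockout animals M5, M9 and M12 and the control animals M6, M7 and M10. Values for 3 animals are given in those orders throughout.

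For each gene, the gonadal level minus the inguinal level was taken within each animal on the scale log2(FPKM + 0.5), where FPKM are fragments scaled to gene length and to the reads of the library. The interaction is the mean of that depot difference in the 3 knockout animals minus its mean in the 3 controls. It equals the knockout minus control difference in gonadal fat minus the same difference in inguinal fat. A positive interaction therefore means that the knockout stood relatively higher, or was reduced less, in gonadal than in inguinal fat. Because 0.5 was added, differences between genotypes or depots are drawn toward 0 for genes with low FPKM. Where only some of the groups are low, the interaction can thereby become larger or smaller.

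FoxO1 is a forkhead transcription factor. When insulin is present, Akt phosphorylates it and it leaves the nucleus. In fat cells it is known to act on lipolysis, on adipocyte differentiation and on genes of stress resistance and cell cycle arrest. Gonadal fat is a visceral depot covered by mesothelium, and inguinal fat is a subcutaneous depot with an embedded lymph node.

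The libraries held between 14953657 and 25438811 reads assigned to genes, and log2 levels of the 2 libraries of a pad correlated at 0.991 to 0.996 across genes. The labelled depots carried their defining genes: Wt1 and Upk3b of visceral mesothelium stood at 17.5 to 109 FPKM in every gonadal pad and below 0.1 FPKM in every inguinal pad, and Tbx15 at 3.49 to 7.39 FPKM in the inguinal pads against at most 0.0486 FPKM in gonadal ones. Adipocyte markers (Adipoq, Plin1, Lep, Fabp4 and Cidec) were present in all 12 pads. Pads also differed in markers of other tissues. Summed epididymal markers reached 509, 3311 and 8539 FPKM in the gonadal pads of M6, M10 and M12, against 0.986 to 2.27 FPKM in the other gonadal pads. Summed B cell markers were 58.7 and 91.0 FPKM in the inguinal pads of M7 (control) and M9 (knockout), against 671 to 1272 FPKM in the other inguinal pads. Summed skeletal muscle markers spanned 168 to 952 FPKM in inguinal controls and 74.9 to 482 FPKM in inguinal knockouts. The part of these tissues in the results below was not tested unless a value is given.

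Foxo1 itself (ENSMUSG00000044167, chr3:52268337-52350109 in mm10 as the deposited table lists it) stood lower in the knockout pads of both depots, by more in inguinal fat. Gonadal control pads held 13.6, 7.87 and 9.53 FPKM and gonadal knockout pads 4.07, 4.46 and 4.01 FPKM. Inguinal control pads held 19.7, 13.02 and 14.5 FPKM and inguinal knockout pads 4.12, 2.49 and 5.69 FPKM. The pads of the 2 genotypes did not overlap in either depot. The knockout minus control difference was -1.18 in gonadal and -1.86 in inguinal fat on the log2(FPKM + 0.5) scale. Controls had less Foxo1 in gonadal than in inguinal fat, with depot differences of -0.52, -0.69 and -0.58, whereas the knockout animals had -0.013, 0.73 and -0.46. The interaction was 0.68 (SE 0.30), with an exact two-sided permutation p of 0.1 over the 20 regroupings of the animals, which is the smallest p that 3 animals against 3 allow. It was 0.36 without knockout animal M9, in which the remaining inguinal level was lowest.

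No gene's knockout effect differed between depots at the adjusted threshold in limma or edgeR, whereas DESeq2 made calls. Of 14577 genes with a mean of at least 0.5 FPKM, 0 (0%) passed an adjusted p of 0.05 for the interaction in limma, and the smallest adjusted p was 0.498. At an unadjusted p under 0.05 there were 866 genes (5.94%), of which 741 (5.08%) had a positive and 125 (0.858%) a negative interaction. That number was 479 without knockout animal M9 and 527 without control animal M10. The 3 knockout and 3 control depot differences did not overlap for 1739 genes (11.9%), with the knockout animals above the controls for 1445 (9.91%) and below for 294 (2.02%). When edgeR was run on whole reads recovered from the FPKM values, 0 genes passed and 668 had an unadjusted p under 0.05, whereas DESeq2 on the same reads called 62.

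The excess of positive interactions moved with scaling. The interaction was above 0 for 66.4% of all genes, with a median of 0.084. The median knockout minus control difference was -0.026 in gonadal and -0.095 in inguinal fat. After the FPKM values were rescaled per pad by TMM (trimmed mean of M values) factors, the median interaction was -0.011, and the 741 positive and 125 negative genes at an unadjusted p under 0.05 became 382 and 264. A positive interaction of 0.1 or less is therefore within the shift that scaling makes.

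Within each depot, 0 genes passed the adjusted threshold in limma with 3 pads against 3. In gonadal fat 1323 genes (9.08%) had an unadjusted p under 0.05, and in inguinal fat 2210 genes (15.2%). Without control animal M7, 29 genes passed the adjusted threshold in inguinal fat. Pads of the 2 genotypes did not overlap in gonadal fat for 2152 genes (14.8%), of which 1029 (7.06%) were higher and 1123 (7.7%) lower in the knockouts. In inguinal fat they did not overlap for 3208 genes (22%), of which 750 (5.15%) were higher and 2458 (16.9%) lower. Both depots separated in the same direction for 596 genes (4.09%). They separated in opposite directions for 49 genes: 45 (0.309%) were higher in gonadal and lower in inguinal knockout fat, and 4 (0.0274%) the reverse.

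**Figure D1:**
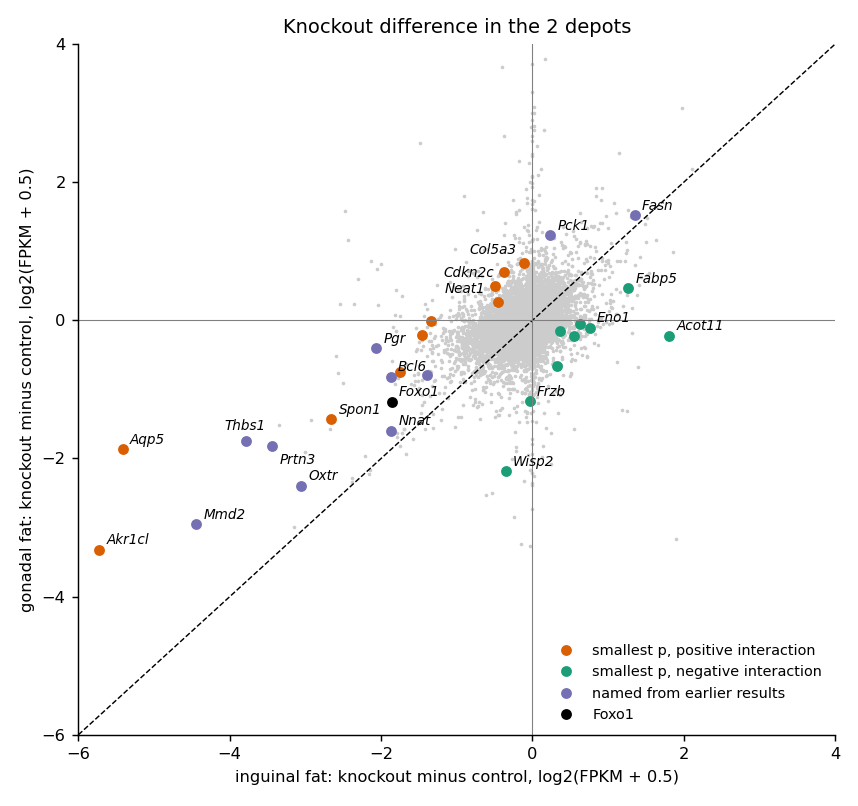
Knockout minus control difference of each of 14577 genes in inguinal fat (x axis) and gonadal fat (y axis), both on the log2(FPKM + 0.5) scale, 3 pads per genotype and depot. The dashed line marks equal differences. Points above it have a positive interaction, such as Aqp5 at 3.55, and points below it a negative one, such as Acot11 at -2.03.

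Of the 10 positive interactions with the smallest p, 4 belonged to genes that were lower in the knockout pads of both depots without overlap, with the deeper shortfall in inguinal fat (Spon1, Aqp5, Akr1cl and Fcrls). Another 3 were higher in gonadal knockout pads without overlap (Cdkn2c, Col5a3 and Neat1), and for Clec4b1, Akr1c14 and Rtn2 the gonadal pads overlapped. Spon1, a secreted matrix glycoprotein (chr7:113765998-114043370), had 24.4, 19.1 and 32.7 FPKM in gonadal control pads and 10.9, 8.85 and 7.23 FPKM in gonadal knockout pads. In inguinal fat the controls had 35.2, 22.5 and 45.99 FPKM and the knockouts 6.23, 4.43 and 4.06 FPKM. All 3 controls therefore had more Spon1 in inguinal than in gonadal fat, and all 3 knockouts the reverse, with depot differences of -0.52, -0.23 and -0.49 against 0.76, 0.92 and 0.76. Its interaction was 1.23 (SE 0.12), with a limma adjusted p of 0.498.

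Aqp5, a water channel (chr15:99590849-99594829), showed the largest interaction among the 10 genes of smallest p in this direction. Its control pads were uneven, at 68.6, 9.69 and 28.9 FPKM in gonadal and 178, 9.31 and 41.04 FPKM in inguinal fat. Knockout pads held 8.98, 6.72 and 5.73 FPKM in gonadal fat but only 0.560, 0.449 and 0.428 FPKM in inguinal fat. Depot differences in controls were near or below 0 (-1.37, 0.055 and -0.50) and in knockouts well above it (3.16, 2.93 and 2.75). The interaction was 3.55 (SE 0.36) (limma adjusted p 0.498), from a gonadal difference of -1.87 and an inguinal difference of -5.42.

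Akr1cl and Akr1c14 belong to the aldo-keto reductases, of which Akr1c14 acts on steroids. Akr1cl had 33.7, 4.63 and 26.7 FPKM in gonadal controls against 0.562, 0.987 and 2.54 FPKM in gonadal knockouts. The inguinal pads held 178, 37.05 and 151 FPKM in controls and 1.13, 1.23 and 1.94 FPKM in knockouts. No knockout pad reached the lowest control pad in either depot, and the interaction was 2.40 (SE 0.27). Akr1c14 was at 1.64, 1.15 and 1.17 FPKM in gonadal controls and 0.735, 1.34 and 1.16 FPKM in gonadal knockouts, which overlapped. In inguinal fat it was at 8.42, 5.37 and 7.20 against 2.12, 2.58 and 1.88 FPKM, and its interaction was 1.25 (SE 0.20). The genotypes thus parted for Akr1c14 only in the inguinal pads.

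Genes that earlier results of these data had singled out for low levels in the knockouts included several that were likewise lower in both depots. Mmd2, a member of the progestin and adipoQ receptor family, stood at 13.9, 3.10 and 10.95 FPKM in gonadal controls and 0.435, 0.757 and 0.594 FPKM in gonadal knockouts. In inguinal fat it stood at 60.8, 33.99 and 70.4 against 1.99, 2.002 and 1.85 FPKM. Control animals carried several times more Mmd2 in inguinal than in gonadal fat, and the interaction was 1.49 (SE 0.31). Prtn3, a serine protease known from neutrophil granules, had 40.2, 31.2 and 39.4 FPKM in gonadal controls and 12.3, 14.7 and 5.55 FPKM in gonadal knockouts. In inguinal fat Prtn3 had 59.9, 43.3 and 68.8 against 5.92, 4.59 and 3.86 FPKM, and its interaction was 1.63 (SE 0.28). Thbs1, a thrombospondin that activates latent TGF-beta, had 57.2, 23.1 and 44.8 FPKM in gonadal controls and 16.8, 9.76 and 8.78 FPKM in gonadal knockouts. For Thbs1 the inguinal pads had 72.2, 7.61 and 26.9 against 1.24, 1.23 and 1.57 FPKM, and the interaction was 2.04 (SE 0.53). For all of Mmd2, Prtn3 and Thbs1 the depot differences of the 2 genotypes did not overlap on the log2(FPKM + 0.5) scale. For Mmd2 this rests on the added 0.5, which is close to the gonadal knockout levels and also enlarged the interaction. The ratio of gonadal to inguinal Mmd2 FPKM was lower in knockout M5 (0.435 to 1.99) than in control M6 (13.9 to 60.8).

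Agt, which encodes angiotensinogen, followed the same order. Gonadal pads held 101, 38.3 and 72.4 FPKM in controls and 38.3, 42.6 and 34.97 FPKM in knockouts, so that one control pad lay within the knockout range. Inguinal pads held 84.1, 34.4 and 38.5 against 11.5, 6.37 and 6.23 FPKM with no overlap. The Agt interaction was 1.81 (SE 0.31) with a limma adjusted p of 0.650. Of 18 adipokine genes tested, 13 had a positive interaction, against 66.4% of all genes. Their median was 0.48 and ranged from 0.29 (without control M7) to 0.51 (without knockout M5). Pgr, the progesterone receptor, was nearly restricted to inguinal controls, at 2.74, 1.12 and 2.23 FPKM against 0.0995, 0.0652 and 0.0769 FPKM in inguinal knockouts and at most 0.339 FPKM in any gonadal pad. Its interaction of 1.66 (SE 0.36) thus rests on a gene that was scarcely detected in one of the depots.

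In the following genes of that earlier set the gonadal minus inguinal differences of the 2 genotypes overlapped. Oxtr, the oxytocin receptor, had gonadal and inguinal differences of -2.39 and -3.06 and an interaction of 0.67 (SE 0.31). Nnat, an imprinted membrane protein gene, had -1.60 and -1.87 and an interaction of 0.27 (SE 0.20). Cfd, the gene of the adipokine adipsin, had -0.80 and -1.40 and an interaction of 0.60 (SE 0.35). Bcl6, a transcriptional repressor, had -0.82 and -1.87 and an interaction of 1.05 (SE 0.41). The interactions of Oxtr, Nnat and Cfd were 0.42, 0.13 and 0.40 without control animal M7.

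**Figure D2:**
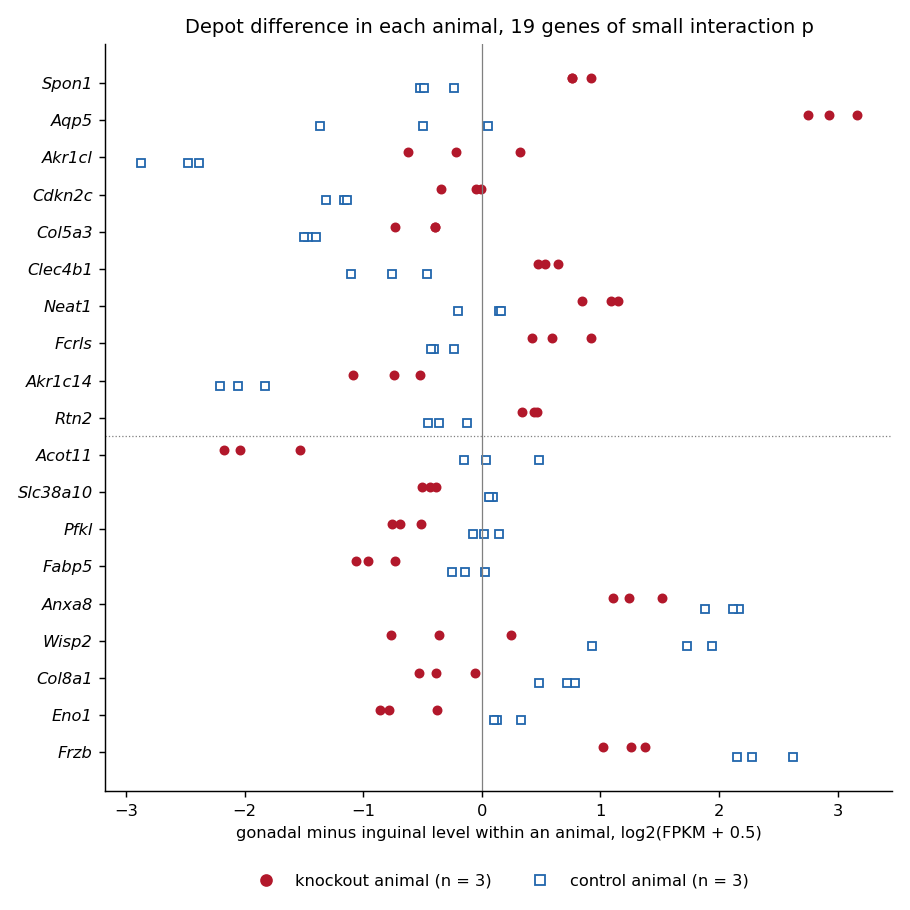
Gonadal minus inguinal level of 19 genes in each animal on the log2(FPKM + 0.5) scale, the 10 of smallest p with a positive interaction above the dotted line and 9 of those with a negative one under it. Filled circles are the 3 knockout animals and open squares the 3 controls. The 2 genotypes do not overlap for any of the 19 genes, which were chosen by small p.

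For Cdkn2c, Col5a3 and Neat1 the knockout pads stood higher in gonadal fat and overlapping or lower in inguinal fat. Cdkn2c, an inhibitor of cyclin-dependent kinases (chr4:109660876-109667189), had 61.7, 60.4 and 57.97 FPKM in gonadal controls and 81.8, 118 and 96.9 FPKM in gonadal knockouts. Inguinal controls had 138, 134 and 145 FPKM and inguinal knockouts 104, 122 and 97.2 FPKM. The genotypes did not overlap in either depot and parted in opposite directions, and the interaction was 1.07 (SE 0.13) with a limma adjusted p of 0.531. In controls Cdkn2c was more than doubled in inguinal relative to gonadal fat, with depot differences of -1.16, -1.14 and -1.32, and in knockouts the 2 depots were nearly level (-0.34, -0.051 and -0.0047). Col5a3, a chain of type V collagen, behaved likewise in gonadal fat, with 38.4, 45.6 and 36.8 FPKM in controls and 56.5, 82.3 and 79.5 FPKM in knockouts. Its inguinal pads overlapped, at 107, 121 and 105 and 94.3, 108 and 104 FPKM, and its interaction was 0.95 (SE 0.13).

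Neat1, the long noncoding RNA on which nuclear paraspeckles form, had 47.8, 49.8 and 65.6 FPKM in gonadal controls and 72.01, 84.5 and 73.1 FPKM in gonadal knockouts. In inguinal fat the order was turned, with 54.97, 45.1 and 58.7 FPKM in controls and 33.5, 37.9 and 40.5 FPKM in knockouts. Its interaction was 0.99 (SE 0.15). Nnmt, which methylates nicotinamide, had 124, 120.0 and 101 against 132, 186 and 135 FPKM in gonadal fat. The inguinal values of Nnmt were 203, 183 and 201 against 146, 152 and 109.6 FPKM, and the interaction was 0.91 (SE 0.18). Both genes are also called in opposite directions in the authors' deposited tables, with log2 fold changes of 0.48 (gonadal) and -0.35 (inguinal) for Neat1 and 0.39 (gonadal) and -0.37 (inguinal) for Nnmt. The other named genes whose pads parted in opposite directions are not called in both depots there, and unnamed genes of this pattern were not looked up. Cdkn2c, Tmem42 and Nr1h3 are called only in gonadal fat, and Bnip3, Cp and Slc38a10 only in inguinal fat. Npff and Neurl2 are called in neither. Col8a1, whose inguinal pads overlapped, is also called in opposite directions there, with log2 fold changes of -0.76 (gonadal) and 0.54 (inguinal). The deposited tables rest on the same libraries, 6 per group from 3 pads, and do not test the difference between depots.

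Of the 45 genes higher in gonadal and lower in inguinal knockout fat, 36 had an established symbol and at least 1 FPKM in a group. Npff, Neurl2 and Tmem42 complete the 6 of these in which the smaller of the 2 depot differences was largest. Npff, a neuropeptide precursor, was low throughout, at 0.531, 0.516 and 0.866 against 0.892, 1.39 and 1.04 FPKM in gonadal fat and 1.05, 0.660 and 1.26 against 0.632, 0.375 and 0.556 FPKM in inguinal fat. Its interaction was 1.03 (SE 0.29). Neurl2 and Tmem42 had interactions of 0.76 (SE 0.23) and 0.65 (SE 0.15). By the same criteria 2 genes did the reverse. Cp, which encodes the copper-binding ferroxidase ceruloplasmin, had 44.9, 34.7 and 35.7 FPKM in gonadal controls and 31.5, 32.2 and 32.3 FPKM in gonadal knockouts, against 27.3, 29.1 and 29.2 and 40.1, 32.8 and 33.9 FPKM in inguinal fat. The interaction of Cp was -0.56 (SE 0.17). Slc38a10, of an amino acid transporter family, had 56.1, 51.7 and 48.6 against 47.8, 45.4 and 46.1 FPKM in gonadal and 53.2, 48.3 and 46.7 against 62.8, 61.6 and 65.5 FPKM in inguinal fat. Its interaction was -0.52 (SE 0.086).

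**Figure D3:**
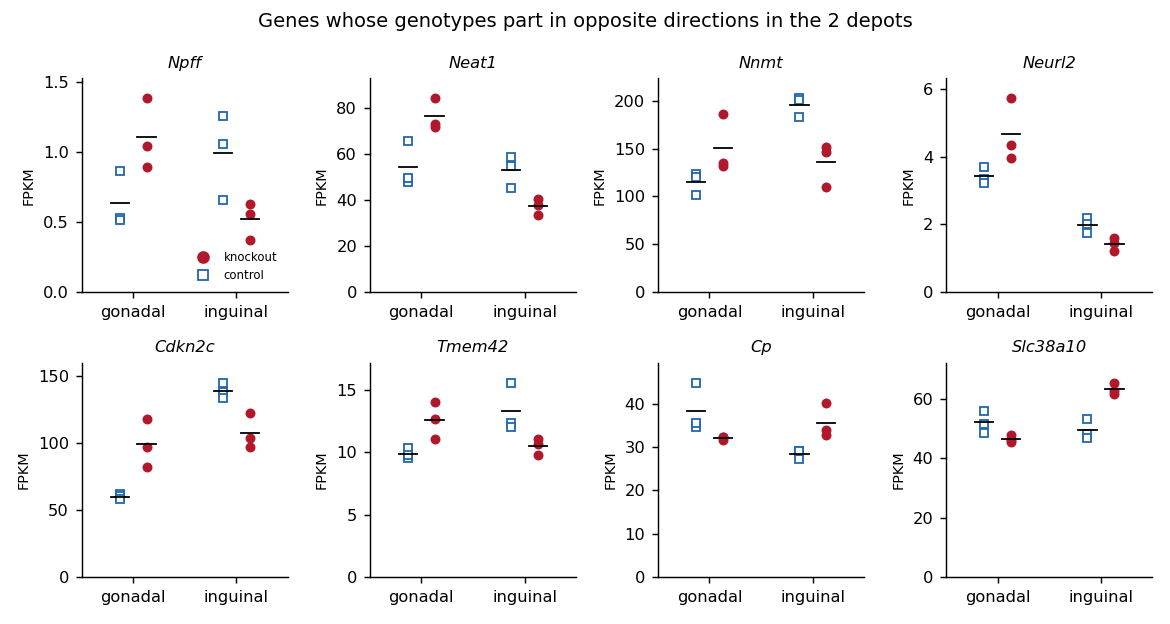
FPKM of 8 genes whose knockout and control pads do not overlap in either depot and part in opposite directions, chosen among such genes with at least 1 FPKM in a group by the size of the smaller of their 2 depot differences; each point is 1 pad (filled circles knockout, open squares control, 3 each) and black bars are means. Cp and Slc38a10 are lower in gonadal and higher in inguinal knockout pads, and the other genes the reverse.

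Of the 10 negative interactions of smallest p, 6 belonged to genes whose inguinal knockout pads all lay above the inguinal controls. Acot11, an acyl-CoA thioesterase that hydrolyses fatty acyl-CoA (chr4:106744555-106804998), had the largest of these interactions. Gonadal pads held 1.02, 1.44 and 1.27 FPKM in controls and 1.02, 1.05 and 0.887 FPKM in knockouts. Inguinal pads held 0.588, 1.40 and 1.47 FPKM in controls and 3.89, 5.85 and 5.75 FPKM in knockouts. The genotypes differed by -0.22 in gonadal but by 1.81 in inguinal fat, and the interaction was -2.03 (SE 0.26) with a limma adjusted p of 0.593. Fabp5, a fatty acid binding protein, had 26.6, 47.3 and 40.6 against 54.01, 53.9 and 46.9 FPKM in gonadal fat. In inguinal fat Fabp5 had 26.1, 56.5 and 44.8 against 105, 89.7 and 98.5 FPKM, and the interaction was -0.79 (SE 0.13).

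Pfkl and Eno1, both among these 10 genes, encode enzymes of glycolysis. Pfkl, a phosphofructokinase, had 42.9, 61.3 and 53.4 FPKM in gonadal controls and 55.4, 48.1 and 47.6 FPKM in gonadal knockouts, with overlap. Inguinal controls had 45.2, 55.5 and 52.6 FPKM and inguinal knockouts 79.1, 81.6 and 76.99 FPKM, without overlap. Its interaction was -0.68 (SE 0.11). Eno1, an enolase, had interaction -0.86 (SE 0.18), from 359.9, 572 and 431 against 506, 382 and 368 FPKM in gonadal fat and 329, 455 and 401 against 659, 658 and 667 FPKM in inguinal fat. Pkm, a pyruvate kinase, had an interaction of -0.99 (SE 0.24) and Aldoa, an aldolase, of -0.63 (SE 0.16). Of 22 tested genes of glycolysis and the citrate cycle, 6 had depot differences lying wholly below those of controls, against 2.02% of all genes, and 0 wholly above. The members with a negative interaction were 15 of 22 and those with a positive one 7, whereas 66.4% of all genes were positive. All 22 were higher in inguinal knockouts on the mean, with a median difference of 0.33, and the gonadal median was 0.19. The median interaction of the list was -0.13, against 0.084 over all genes, and leaving out 1 animal at a time moved it from -0.25 (without control M7) to -0.062 (without control M6). Under TMM scaling it was -0.24.

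Wisp2, Frzb and Col8a1, which encode secreted proteins, had negative interactions and stood lower in gonadal knockouts. Wisp2, a secreted protein of the CCN family, had 14.6, 6.48 and 6.81 FPKM in gonadal controls and 1.21, 2.04 and 1.39 FPKM in gonadal knockouts. Its inguinal pads overlapped, at 7.40, 1.31 and 1.70 and 2.39, 1.64 and 1.94 FPKM, and the interaction was -1.83 (SE 0.37). Frzb, a secreted inhibitor of Wnt signals, had 2.58, 2.52 and 3.02 against 0.974, 0.752 and 1.06 FPKM in gonadal fat and at most 0.181 FPKM in any inguinal pad. Its interaction of -1.13 (SE 0.25) came with a gonadal difference of -1.17. Col8a1, a chain of type VIII collagen, had 1.87, 1.94 and 2.19 against 0.761, 1.20 and 1.33 FPKM in gonadal fat and 1.20, 0.913 and 1.14 against 1.15, 1.96 and 1.41 FPKM in inguinal fat, with an interaction of -0.99 (SE 0.20).

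Anxa8, an annexin that binds phospholipid in the presence of calcium, had 10.2, 18.7 and 10.1 FPKM in gonadal controls and 14.7, 9.72 and 8.34 FPKM in gonadal knockouts. Inguinal controls had 1.89, 4.70 and 1.93 FPKM and inguinal knockouts 4.79, 4.25 and 3.23 FPKM, so the genotypes overlapped in both depots. Only the within-animal depot differences separated, at 2.16, 1.88 and 2.12 in controls and 1.52, 1.11 and 1.24 in knockouts, and the interaction was -0.77 (SE 0.15). It is shown because, of the 28 genes with a window among 36 looked up, it held the forkhead core motif and the other genes did not. The stretch lies on the plus strand at chr14:34085753-34085819 (GRCm38.p6), upstream of the start site, with the motif in capitals.
Anxa8: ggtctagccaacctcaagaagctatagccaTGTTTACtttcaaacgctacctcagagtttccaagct
The motif searched was TGTTTAC and its reverse complement GTAAACA, in windows from 250 bases before to 50 bases after the start. Of 36 genes looked up 28 had a window and 1 (3.57%) held a match, against 3.65% of all 32851 windows and 2.56% of the 13212 windows of tested genes. The first share counts genes, some of which have several windows, and the other shares count windows, so they are not in the same unit. The 36 were Foxo1, the genes of smallest p, those that parted in opposite directions and those from earlier results, and no other named gene was searched. A match describes these letters only.

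Among cell type markers, the macrophage, adipocyte and skeletal muscle lists were positive in every tested member. All 24 tested macrophage markers had a positive interaction, against 66.4% of all genes, and for 8 of them the depot differences of knockouts lay wholly above those of controls, against 9.91% of all genes. The median interaction was 0.65, from a median difference of -0.35 in gonadal and -0.99 in inguinal fat. Leaving out 1 animal at a time gave 0.39 (without control M6) to 0.86 (without knockout M12). Summed macrophage markers were 1755, 824 and 1325 FPKM in inguinal controls and 731, 413 and 702 FPKM in inguinal knockouts. In gonadal fat they were higher and overlapped, at 10336 to 16687 FPKM in controls and 8514 to 15085 FPKM in knockouts. In bulk tissue, fewer cells of a type and less RNA per cell cannot be told apart.

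Cd163, a scavenger receptor for haemoglobin, had 14.5, 6.14 and 8.86 FPKM in gonadal controls and 9.43, 7.47 and 6.24 FPKM in gonadal knockouts. In inguinal fat it had 17.2, 8.99 and 10.8 against 7.67, 5.14 and 5.01 FPKM, and its interaction was 0.70 (SE 0.13). Emr1, the gene of the F4/80 antigen, had 53.2, 54.6 and 48.8 against 51.9, 36.1 and 34.99 FPKM in gonadal fat. In inguinal fat Emr1 had 10.9, 5.15 and 7.94 against 3.23, 2.50 and 2.88 FPKM, and its interaction was 0.91 (SE 0.28). Cd163 and Emr1 thus parted the genotypes in the inguinal pads and not in the gonadal ones. The myeloid receptor Clec4b1 and the Fc receptor-like Fcrls, both among the 10 positive genes of smallest p, had inguinal differences of -1.34 and -1.75 and interactions of 1.32 (SE 0.19) and 1.001 (SE 0.15). The complement gene C1qb had an interaction of 0.83 (SE 0.26). Of 21 genes of the acute phase and complement 2 had non-overlapping depot differences, against 11.9% of all genes, and the list median was 0.35, ranging from 0.26 (without knockout M9) to 0.55 (without knockout M12). The part of macrophage content in these genes was not tested. Neutrophil markers were positive for 9 of 12, against 66.4% of all genes, with a median of 0.42. That median ranged from 0.075 (without control M6) to 1.02 (without knockout M12) when 1 animal was left out.

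**Figure D4:**
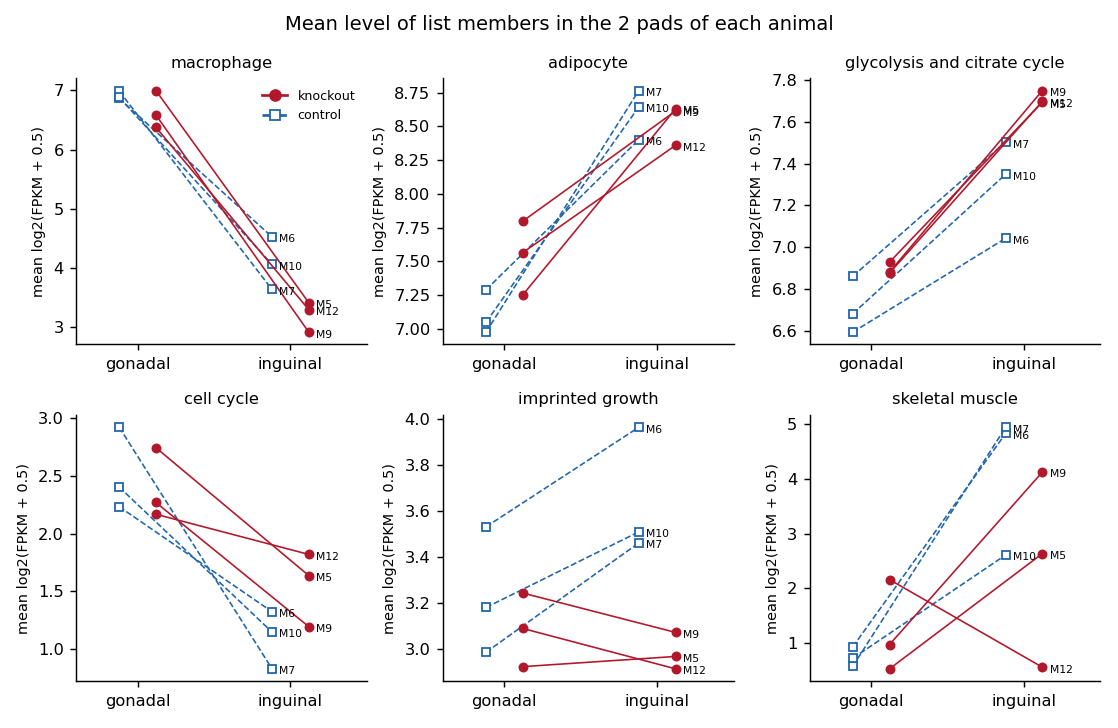
Mean log2(FPKM + 0.5) level of the tested members of 6 gene lists in the gonadal and inguinal pad of each animal, 1 line per animal (filled circles knockout, open squares control, 3 each). Knockout lines sit under control lines in the inguinal pads of the macrophage list and not in its gonadal pads; the skeletal muscle panel shows the spread between inguinal pads.

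Adipocyte genes had a positive median difference in gonadal fat and one near 0 in inguinal fat. All 22 adipocyte markers had a positive interaction. Their median difference was 0.48 in gonadal fat and -0.0058 in inguinal fat, and their median interaction was 0.49, ranging from 0.37 (without control M7) to 0.70 (without control M6). Depot differences did not overlap for 2 of the 22, which is close to the 9.91% of all genes. Cidec, which enlarges lipid droplets by fusing them, had 540.4, 507 and 479 FPKM in gonadal controls and 586, 990.4 and 779 FPKM in gonadal knockouts. Its inguinal pads overlapped, at 957, 1259 and 1104 and 1042, 923 and 804 FPKM, and its interaction was 0.86 (SE 0.30). Lpl, which releases fatty acids from lipoproteins for uptake, had 1030.3, 1052 and 954 against 1496, 2058 and 1969.8 FPKM in gonadal fat and 2283, 2489.7 and 2007 against 2314, 2517 and 2289.6 FPKM in inguinal fat. The interaction of Lpl was 0.78 (SE 0.20). The genotypes of both genes separated in gonadal pads and overlapped in inguinal pads.

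Lists of genes that store and release fat had positive median interactions, and they share members with the adipocyte markers. Triglyceride assembly and glyceroneogenesis had 14 of 19 positive members, against 66.4% of all genes. Depot differences of knockouts lay wholly above those of controls for 2 of the 19, against 9.91% of all genes. The list had median differences of 0.68 (gonadal) and 0.19 (inguinal). Its median interaction was 0.31 and 0.20 under TMM scaling, with a range from 0.12 (without knockout M12) to 0.50 (without control M6). Agpat9, an acyltransferase of glycerol phosphate, had 15.4, 16.03 and 12.2 against 22.4, 34.4 and 30.9 FPKM in gonadal and 30.2, 37.4 and 27.9 against 32.00, 30.2 and 24.7 FPKM in inguinal fat, with an interaction of 1.10 (SE 0.23). Pck1, the entry enzyme of glyceroneogenesis, had 110.0, 83.5 and 88.7 against 203, 209 and 249 FPKM in gonadal fat. In inguinal fat Pck1 was several times higher and overlapped, at 642, 882 and 1204 and 1166, 960.1 and 997 FPKM, and its interaction was 0.99 (SE 0.34).

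Lipolysis and lipid droplet genes had 18 of 24 positive members, against 66.4% of all genes. Depot differences lay wholly above those of controls for 3 members and wholly below for 1, against 9.91% and 2.02% of all genes. The median interaction was 0.33, ranging from 0.23 (without control M7) to 0.47 (without control M6). G0s2, an inhibitor of adipose triglyceride lipase, had 197, 225 and 157 against 196, 314 and 209 FPKM in gonadal fat, with overlap. Its inguinal pads had 376, 536 and 396 against 308, 341 and 248 FPKM, without overlap, and its interaction was 0.84 (SE 0.19). Plin4, a lipid droplet coat protein, had an interaction of 0.50 (SE 0.17). Breakdown of branched-chain amino acids had 18 of 21 positive members, against 66.4% of all genes. Its median was 0.24, with Bcat2, the mitochondrial transaminase, at 0.53 (SE 0.19). The branched-chain median was 0.14 under TMM scaling and 0.15 with edgeR, and without 1 animal it went from 0.12 (without control M7) to 0.39 (without control M6).

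De novo lipogenesis had medians above 0 in the knockouts of both depots. Its median difference was 0.56 in gonadal and 0.71 in inguinal fat, with a median interaction of -0.052 that ranged from -0.19 (without control M7) to 0.063 (without control M6), and 0 of 23 members had non-overlapping depot differences, against 11.9% of all genes. The median interaction was -0.16 under TMM scaling. Fasn, the fatty acid synthase, had 169.9, 127 and 118 FPKM in gonadal controls and 245, 464 and 529.9 FPKM in gonadal knockouts. Inguinal pads had 616, 1182 and 938 against 2349, 2291 and 2118 FPKM. Its interaction was 0.17 (SE 0.48), which turned to -0.098 without control M7 and -0.093 without knockout M12. Within the list, Acly, which makes cytosolic acetyl-CoA from citrate, had an interaction of -0.85 (SE 0.38) and Pnpla3, a lipase-like lipid droplet protein, one of 0.80 (SE 0.27). The 2 genes thus lay on opposite sides.

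Mitochondrial lists showed small positive medians that depended on scaling. Against 66.4% of all genes, oxidative phosphorylation had 25 of 28 positive members and a median of 0.13, and fatty acid oxidation 18 of 22 and 0.17. Under TMM scaling these medians were 0.023 and 0.063. Without 1 animal they ranged from 0.023 (without control M7) to 0.31 (without control M6) and from 0.015 (without control M7) to 0.40 (without control M6). Neither list had a member with non-overlapping depot differences, against 11.9% of all genes.

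**Figure D5:**
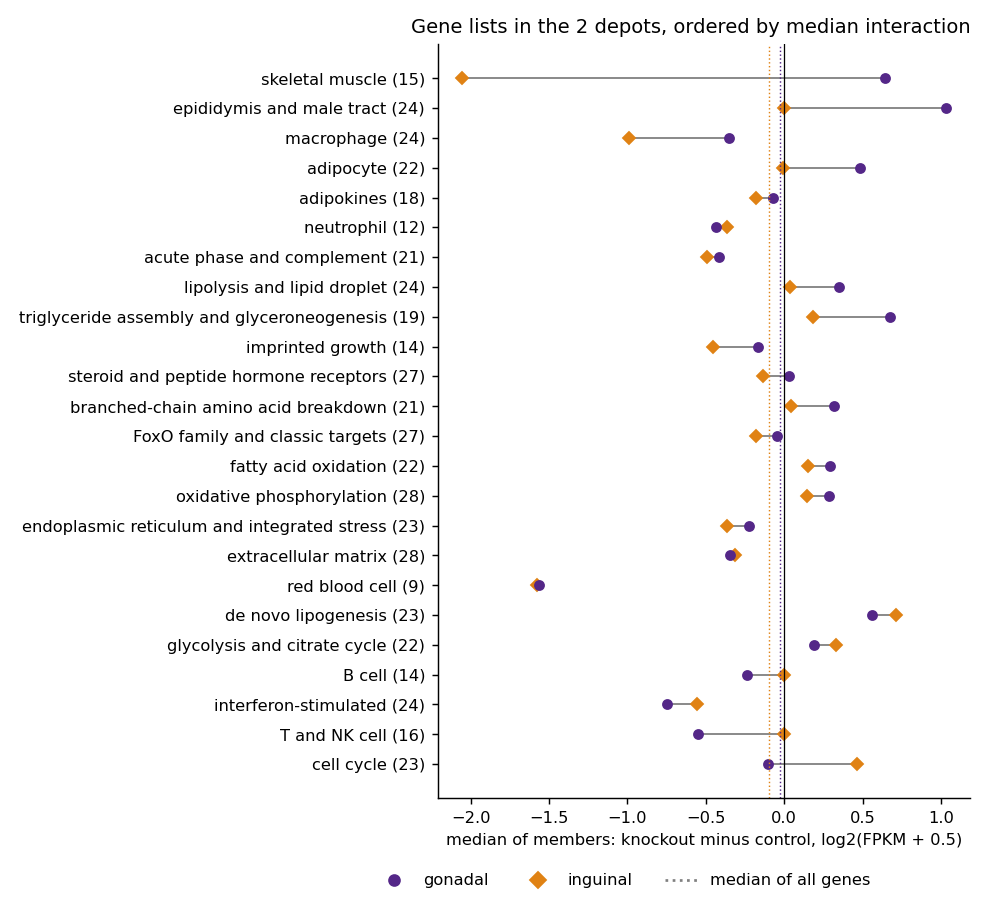
Median knockout minus control difference, log2(FPKM + 0.5), of 24 gene lists in gonadal fat (circles) and inguinal fat (diamonds), with the number of tested members in brackets and lists ordered by median interaction. Dotted lines are the medians of all genes, -0.026 (gonadal) and -0.095 (inguinal).

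Cell cycle genes lay on the negative side. A negative interaction was found for 22 of 23 tested members and a positive one for 1, whereas 66.4% of all genes were positive. The gonadal median was -0.10 and the inguinal median 0.46. The median interaction was -0.62, and it ranged from -0.90 (without control M6) to -0.21 (without control M7). Mki67, a marker of dividing cells, had 3.05, 4.14 and 3.67 FPKM in gonadal controls and 3.77, 2.88 and 2.45 FPKM in gonadal knockouts. In inguinal fat it had 1.41, 0.757 and 1.11 against 1.92, 1.64 and 2.37 FPKM, and its interaction was -0.88 (SE 0.33). Depot differences did not overlap for 3 of the 23 members, against 2.02% of all genes. Control M7 and knockout M9, the inguinal pads low in B cell markers, were also low in Mki67 for their genotype. Over the whole list, the mean log2(FPKM + 0.5) in inguinal pads was 1.32, 0.83 and 1.15 in controls. It was 1.64, 1.19 and 1.82 in knockouts, so that M9 lay below control M6. The part of lymphocytes in the cell cycle genes was not tested.

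FoxO genes and their classic targets were positive for 20 of 27 tested members, against 66.4% of all genes. Of these 27, 5 had depot differences wholly above those of controls and 1 wholly below, against 9.91% and 2.02% of all genes. The median interaction was 0.20, and 0.11 under TMM scaling. Bnip3, a mitophagy receptor, had 118, 113 and 116 against 124, 137 and 118 FPKM in gonadal fat, where the ranges were adjacent. Its inguinal pads had 242, 280.3 and 245 against 208, 177 and 161 FPKM, and the interaction was 0.61 (SE 0.15). Ccng2, a cyclin linked to cell cycle arrest, had an interaction of 0.35 (SE 0.10). Sesn1, a stress-induced inhibitor of mTORC1, had 0.42 (SE 0.16) with overlapping depot differences. In the insulin pathway Irs2, an insulin receptor substrate, had 6.54, 3.63 and 5.73 against 4.03, 4.19 and 5.75 FPKM in gonadal fat. Inguinal Irs2 was at 8.89, 5.64 and 7.68 against 4.55, 2.86 and 4.63 FPKM, and the interaction was 0.66 (SE 0.19). Sesn2, of the stress response lists, had an interaction of 0.80 (SE 0.15) from an inguinal difference of -0.89.

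Imprinted growth genes had the highest share of non-overlapping depot differences of any list described. These were 6 of 14 tested members, against 9.91% of all genes, all with the knockouts above the controls. A positive interaction was found for 13 of 14 members, against 66.4% of all genes. The median interaction was 0.30, and 0.22 under TMM scaling, with a range from 0.28 (without control M7) to 0.41 (without control M6). The median differences were -0.17 in gonadal and -0.46 in inguinal fat. Ndn, a paternally expressed growth suppressor, had 18.4, 12.8 and 12.8 against 15.1, 18.6 and 17.2 FPKM in gonadal fat. The inguinal pads had 41.4, 31.98 and 36.5 against 26.3, 31.04 and 28.9 FPKM, and the interaction was 0.56 (SE 0.11). Cdkn1c, a maternally expressed inhibitor of cyclin-dependent kinases, had 28.02, 11.03 and 16.1 against 11.6, 17.1 and 13.4 FPKM in gonadal and 53.5, 24.1 and 25.4 against 14.7, 11.9 and 10.6 FPKM in inguinal fat. Its interaction was 1.05 (SE 0.25). Mest and the noncoding RNA H19 had interactions of 1.46 (SE 0.38) and 1.52 (SE 0.36). In controls these 4 genes were higher in inguinal than in gonadal fat in every animal, and in the knockouts the depots were closer to level.

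Hormone receptors leaned the same way. Of 27 tested receptors of steroid and peptide hormones, 6 had depot differences wholly above those of controls, against 9.91% of all genes. The median interaction was 0.27, 0.17 under TMM scaling, ranging from 0.11 (without knockout M12) to 0.37 (without knockout M5). Nr3c1, the glucocorticoid receptor, had 25.6, 22.1 and 25.05 against 23.3, 26.2 and 25.1 FPKM in gonadal fat. In inguinal fat it had 38.03, 31.4 and 33.5 against 25.5, 29.8 and 24.8 FPKM, and its interaction was 0.39 (SE 0.10). Ghr, the growth hormone receptor, had 211, 145 and 175 against 163, 208 and 183 FPKM in gonadal and 387, 313 and 347 against 256, 226 and 203 FPKM in inguinal fat, with an interaction of 0.68 (SE 0.18). Npr3, the clearance receptor for natriuretic peptides, had an interaction of 0.68 (SE 0.18). Nr3c1 and Ghr separated the genotypes only in inguinal pads.

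Some lists were lower in the knockouts of both depots by similar amounts. Red blood cell genes had median differences of -1.57 in gonadal and -1.57 in inguinal fat. Interferon-stimulated genes had medians of -0.75 and -0.56. Their interactions were negative for 21 of 24 and positive for 3, whereas 66.4% of all genes were positive. The median interaction of -0.20 ranged from -0.33 (without knockout M9) to 0.0076 (without knockout M12). Extracellular matrix genes had medians of -0.35 and -0.31. The median interaction of the matrix list was 0.083 as deposited and -0.023 under TMM scaling, and that of the red blood cell list 0.025 and -0.066, so neither had a stable direction. Without 1 animal the matrix median ranged from -0.043 (without knockout M5) to 0.19 (without control M7) and the red blood cell median from -0.32 (without control M10) to 0.34 (without knockout M5). Rsad2, an antiviral enzyme induced by interferon, had differences of -1.44 and -1.21 and an interaction of -0.23 (SE 0.15). Genes of endoplasmic reticulum and integrated stress had medians of -0.22 and -0.37 and a median interaction of 0.11, which was 0.016 under TMM scaling and ranged from 0.0055 (without control M6) to 0.25 (without control M7).

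The largest list medians belonged to tissues that the pads held in uneven amounts. Skeletal muscle genes had 15 of 15 positive interactions and a median of 2.27, but it was 0.81 (without knockout M12) to 3.27 (without knockout M9) when 1 animal was left out. Epididymal genes had a median of 1.13 that ranged from -1.27 (without knockout M12) to 2.63 (without knockout M5). Lymphocyte lists also changed sign with 1 animal: the T and NK cell median of -0.53 ranged from -1.81 (without knockout M9) to 0.50 (without control M7), and the B cell median of -0.14 from -1.85 (without knockout M9) to 1.02 (without control M7). Depot differences did not overlap for 1 of 15 muscle genes, 2 of 24 epididymal genes and 0 of 30 lymphocyte genes, against 11.9% of all genes.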

How the data were processed

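Per the labels' protocols, RNA was prepared with Qiagen RNeasy and made into NEBNext Ultra libraries. STAR, CASAVA and the mm10 build are named without versions in the submitters' processing notes; the sources used here give neither the counting tool nor the strand setting, so overlapping and antisense genes cannot be told apart. The authors deposited FPKM of 35275 genes in 24 libraries, with the gene length the values use, and 2 tables of the genes they called per depot. Those tables hold, per the file headers, read counts per library, group means of scaled counts (a signal without stated size factors), log2 fold changes, p-values and adjusted p-values. Library names map to groups, not to single labelled samples.

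FPKM were averaged over both libraries of each pad, and genes with a mean of at least 0.5 FPKM over the 12 pads were kept (14577). limma 3.58.1 (R 4.3.3; trend, two-sided, Benjamini-Hochberg adjustment) was fitted to log2(FPKM + 0.5) with animal as a block, depot, and depot by genotype. Pairing comes from the animal number in the library names; deviations of the 2 pads of an animal correlated at -0.095 to 0.136. P-values measure the spread between 3 animals a genotype. Library totals were taken from genes with counts in the deposited tables, and FPKM values then gave whole reads (100% of values, tolerance 0.001) for edgeR 4.0.16 and DESeq2 1.42.0, run as alternatives with TMM scaling, other pseudocounts and filters, no block, libraries as replicates, and each animal left out. Promoter windows are from RefSeq (GRCm38.p6).

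Named genes were Foxo1; 10 each way by smallest interaction p, since none passed the adjusted threshold; up to 6 each way whose pads parted in opposite directions in the 2 depots, with at least 1 FPKM in a group; up to 4 members of smallest p of a described list; and 10 genes known from earlier results. Bhlhe40, Ccl6, Ccl9, Fdps, Ghr, Hmgcs1 and Nr1h3 were added after their values were seen. Some genes that this rule names are not reported here. Members, lists and the question were chosen with earlier results of these data known. Of 925 genes in 47 lists, 922 were found (11 under another symbol) and 864 tested; lists are described by counts and medians, without a test. The 24 lists plotted were chosen after seeing values; medians of the other 23 lay between -0.12 and 0.37.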

Additional observations from a re-analysis of the deposited data

Results flagged for a closer look

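In 10 named genes the pads of knockout and control animals did not overlap in either depot and parted in opposite directions. The interactions were 1.03 for Npff, 0.99 for Neat1, 0.91 for Nnmt, 0.76 for Neurl2, 1.07 for Cdkn2c, 0.65 for Tmem42, 0.61 for Bnip3 and 0.50 for Nr1h3, all higher in gonadal and lower in inguinal knockout fat. They were -0.56 for Cp and -0.52 for Slc38a10, which were lower in gonadal and higher in inguinal knockout fat. For Bnip3 the gonadal ranges barely parted, at 117.9 FPKM in control M6 against 118.2 FPKM in knockout M12. Its gonadal difference was 0.12 (SE 0.082). None of the 10 passed the adjusted threshold in limma with animal as a block, where their adjusted p lay between 0.531 (Cdkn2c) and 0.740 (Neurl2 and Cp). Genes with this pattern made up 0.309% and 0.0274% of all genes tested.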

How the results depend on the processing

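The count of 0 genes past the adjusted threshold held for every setting but a pair. Treating the 24 libraries as replicates with no replicate block gave 265 genes (226 positive, 39 negative), but that fit counts the 2 libraries of a pad as independent. DESeq2 on recovered reads with the replicate block gave 62 (43 positive, 19 negative), with no adjusted p for 2544 genes. The 12 pads with no replicate block gave 0, and 725 genes at an unadjusted p under 0.05, so dropping the pairing of pads changed no other call. Leaving out each animal gave 0 each time for the interaction, 0 to 1 for gonadal fat and 0 to 29 for inguinal fat. The imprinted median was 0.44 with a mean of at least 2 FPKM, 0.22 under TMM scaling and 0.28 to 0.41 without 1 animal. The glycolysis and citrate cycle median was -0.24 under TMM scaling, -0.23 with edgeR and the replicate block, and -0.25 to -0.062 without 1 animal. Of 1689 values of 113 named genes under 15 alternatives, 1687 kept their direction; the exceptions were Fasn without M7 (-0.098) and without M12 (-0.093), where leaving out 1 animal gave up to 0.58. Named genes passed the threshold in 71 of these values, 44 with libraries as replicates and 27 with DESeq2. With 3 animals a genotype and a median SE of 0.20 for the interaction, no interaction of the sizes given passed the adjusted threshold in limma.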

Other observations

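Clock and sterol genes also included members that parted by depot. Bhlhe40, a repressor of the circadian clock, had 29.95, 61.9 and 44.5 FPKM in gonadal controls and 57.3, 40.6 and 42.9 FPKM in gonadal knockouts, with overlap. In inguinal fat it had 11.7, 17.2 and 10.9 against 35.3, 32.6 and 21.03 FPKM, and its interaction was -1.03 (SE 0.25). In cholesterol synthesis, Hmgcs1, which makes HMG-CoA, had an interaction of 0.59 (SE 0.14) and Fdps, a farnesyl diphosphate synthase, one of -0.71 (SE 0.17). Hmgcs1 stood higher only in gonadal knockouts and Fdps only in inguinal knockouts, at 46.1, 49.97 and 42.04 FPKM in inguinal controls against 65.1, 77.7 and 78.8 FPKM. The cholesterol synthesis list as a whole had a median interaction of -0.096.

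Inflammatory cytokine and chemokine genes had 11 of 29 positive interactions, against 66.4% of all genes, and a median of -0.11. The 2 members of that list with the smallest p, Ccl6 and Ccl9, lay on the positive side. Ccl6, a chemokine of myeloid cells, had 149.9, 76.5 and 123 FPKM in inguinal controls and 47.9, 23.8 and 28.1 FPKM in inguinal knockouts, against overlapping gonadal values of 496, 1022 and 829 and 1007, 606 and 497 FPKM. The interaction of Ccl6 was 1.64 (SE 0.50) and that of Ccl9 was 1.90 (SE 0.63), which went from 1.23 without control M6 to 2.54 without control M7. Nr1h3, the liver X receptor that senses oxysterols, was higher in gonadal knockouts (40.3, 43.7 and 38.2 against 44.9, 54.3 and 46.8 FPKM) and lower in inguinal knockouts (57.5, 61.98 and 61.03 against 53.3, 50.7 and 47.6 FPKM). Its interaction was 0.50 (SE 0.12).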
